A study of Rattus norvegicus with 3 samples.

Results

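Pre DP-sig is a label that the authors' annotation gave to 325 of the 8546 annotated cells of 1 rat thymocyte library, or 3.80% (95% exact binomial interval 3.41 to 4.23%). A cell's label was its projected label, or its initial cluster where no projected label was given. The same library held 5202 cells labelled DP and 295 labelled DP-sig, the labels set beside Pre DP-sig here. The cells came from thymus of Lewis rats, an inbred strain, aged 8 weeks, and were freed from the tissue with collagenase D and DNase I; the number of animals is not given in the sources used here. A 10 µm thymus section of the same strain and age was profiled by Stereo-seq, which captures RNA on a chip with known coordinates. Each group had 1 sample, so differences could not be checked against replicates, and neither tests nor p-values are given. Bracketed ranges are 95% intervals that cover counting error only. The labels were drawn from the same RNA counts, so the gene differences between them are descriptions.

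Double-positive thymocytes carry both coreceptors, CD4 and CD8, and use the recombinase of Rag1 and Rag2 to assemble the alpha chain of the T cell receptor in the thymic cortex. A receptor that binds self peptide on the major histocompatibility complex of cortical epithelium sends a signal that switches off recombination, induces the surface protein CD69 and spares the cell from death, a step called positive selection. Selected cells then change their coreceptors, commit to the CD4 or the CD8 lineage and move to the medulla.

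In all the 325 cells gave 1200280 UMIs (unique molecular identifiers, which count captured RNA molecules), against 18914942 in DP and 1288426 in DP-sig. The median cell held 3484 UMIs and 1683 genes in Pre DP-sig, 3205.5 UMIs in DP and 4010 in DP-sig, and the largest held 10992 UMIs in Pre DP-sig against 30476 in DP. The median deposited mitochondrial percentage was 5.02% in Pre DP-sig, 5.22% in DP and 4.31% in DP-sig. Of the barcodes, 38 also occurred in the stromal library, 4 of them in Pre DP-sig cells, and no named gene moved by more than its interval without them. Summed markers of other cell types were low. The 8 B cell genes summed to 8.33 CPM (UMIs per 1000000 UMIs of a label) in Pre DP-sig, with 4 of them at 0, against 13.5 in DP and 4.66 in DP-sig. The 12 myeloid genes summed to 13.3 CPM, with 4 at 0, against 12.1 and 11.6. The 9 epithelial genes summed to 9.998 CPM, with 7 at 0, against 10.2 and 12.4. The 9 natural killer and gamma delta T cell genes summed to 49.2 CPM (37.4 to 63.4), with 6 at 0, against 40.4 in DP and 37.3 in DP-sig. A UMI of these 9 genes was found in 15.7% of Pre DP-sig, 12.6% of DP and 14.2% of DP-sig cells. The 8 mesenchymal and endothelial genes summed to 19.2 CPM, with 6 at 0, and the 8 erythroid genes to 1.67, with 7 at 0. The 8 genes of mature single-positive thymocytes were higher, at 122 CPM in DP, 298 in Pre DP-sig and 441 in DP-sig. Lyz2 and Epcam, defining genes of myeloid and epithelial cells, had no UMI in Pre DP-sig cells.

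The label was checked against Rag1, Cd4 and Cd69, the 3 marker genes given for it. Over the 17 labels with at least 50 cells, Pre DP-sig was second only to DP in Cd4 (393 CPM) and in Cd8a (1025 CPM). For Cd4 its interval (359 to 430.4) overlapped that of the next label, Immature CD4-2 (328 to 413). Rag1, which encodes the recombinase subunit that cuts the receptor locus, ranked 6 of 17, at 154 CPM against 1952 in DP. Cd69, the surface protein induced by receptor signals, ranked 12 of 17 at 72.5 CPM, far above the 5.55 CPM of DP and below the 193 CPM of DP-sig. Tox, a nuclear factor needed for CD4 lineage development, ranked 4 of 17 at 2229 CPM. Summed over the label, RNA of both coreceptors was thus present while Rag1 was low and Cd69 was detectable. Cd4 had a UMI in 62.2% of Pre DP-sig cells and Cd8a in 88.9%, against 96.5% and 95.98% of DP cells. Cells with both were not counted. A UMI of Rag1 was found in 20.3% of Pre DP-sig cells at a median depth of 3484 UMIs. Among labels beyond the double-positive stage the share was 3.09% in Immature CD8-1 (4970 UMIs) but 27.6% in Mature CD4-2 (9553 UMIs), at a level of 199 CPM, and 11.8% in B+myeloid cells (11506 UMIs). The Rag1 share of Pre DP-sig is therefore given without a reading as expression.

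Across the 6223 genes with a mean of at least 20 CPM over the 3 labels, levels in Pre DP-sig were mostly like those of its neighbours. Against DP, 201 genes were at least 2-fold higher (3.23%) and 186 at least 2-fold lower (2.99%), together 6.22%, and the interval of each excluded 1. Against DP-sig, 187 genes were at least 2-fold higher (3.0%) and 107 lower (1.72%), together 4.72%. The interval excluded 1 for 185 (2.97%) and 107 of them, together 4.69%. The median ratio over all tested genes was 1.02 against DP and 0.994 against DP-sig. Both comparisons share the Pre DP-sig cells, so each gene's values in the 3 labels are given side by side, and levels are compared between labels for the same gene and never between genes.

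**Figure D1:**
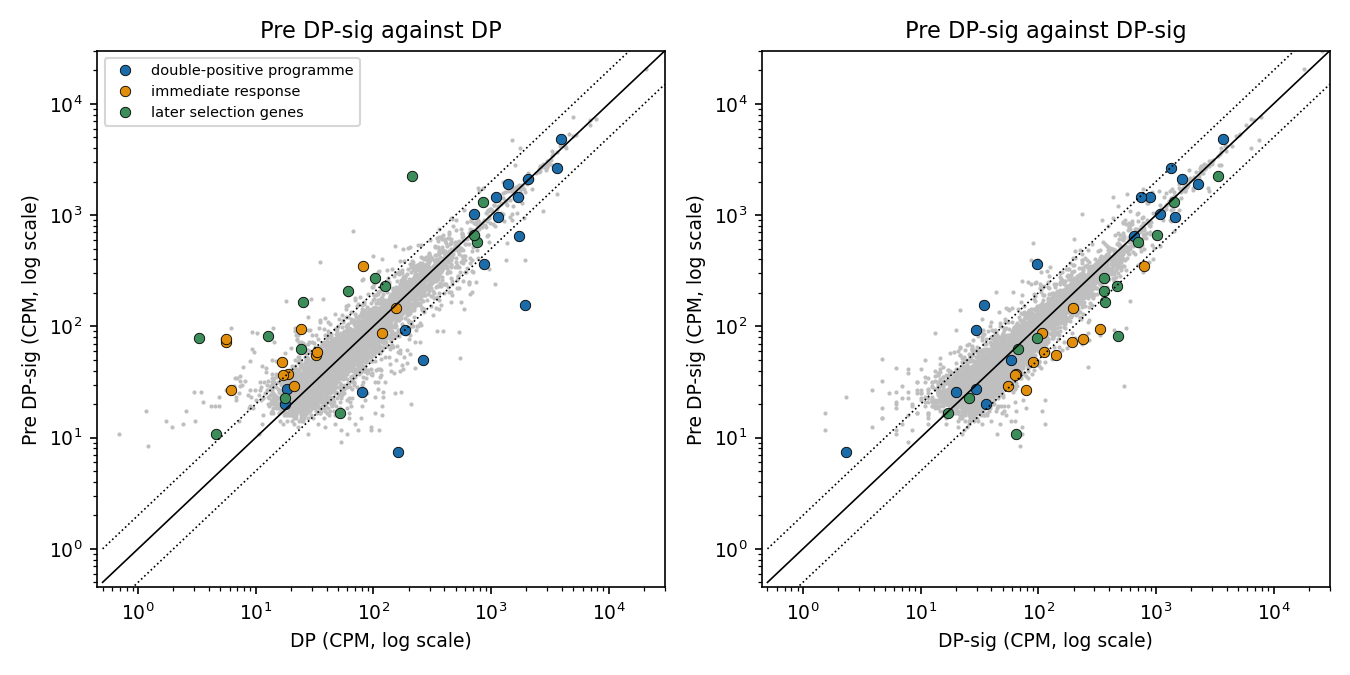
Level of each tested gene in Pre DP-sig (vertical axis, CPM, log scale) against DP (left) and DP-sig (right), with 3 gene lists in colour, the line of equality and dotted lines at 2-fold. Genes of the immediate response and later selection lists lie mostly above the line against DP and below it against DP-sig.

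Genes of receptor rearrangement and the double-positive programme included the largest reductions from DP. Of 18 genes on this list 17 were tested, and 7 were at least 2-fold lower in Pre DP-sig than in DP and none higher. Over all genes 2.99% were as far below DP and 3.23% as far above it. The median ratio of the list was 0.836 against 1.02 over all genes. Rag1 was at 1952 CPM in DP, 154 in Pre DP-sig and 34.9 in DP-sig, a level 12.7-fold (10.96 to 14.7) lower in Pre DP-sig than in DP and 4.41-fold (3.17 to 6.26) higher than in DP-sig. Rag2, the partner of Rag1 in the recombinase, was at 162 CPM in DP, 7.5 in Pre DP-sig and 2.33 in DP-sig, which is 21.6-fold (11.3 to 47.2) below DP. The Pre DP-sig and DP-sig values of Rag2 rest on 9 and 3 UMIs, and their ratio of 3.22 had an interval of 0.804 to 18.5. Both recombinase genes were thus far below DP, and only for Rag1 did the level in Pre DP-sig stand apart from DP-sig beyond counting error. The log2 ratio of Rag1 to DP-sig, 2.14 over all cells, was 1.14 in cells with at most 5% mitochondrial UMIs, 0.94 within the initial cluster Early SP, 2.85 as the mean of the cells' CPM and 2.98 with each cell thinned to 1000 UMIs. Its log2 ratio to DP was -3.66 over all cells and -4.32 in the cells with at most 5% mitochondrial UMIs, and that of Rag2 was -4.43 and, thinned, -3.74. The limit of 5% mitochondrial UMIs, used here and below, kept 161 of 325 Pre DP-sig, 2349 of 5202 DP and 199 of 295 DP-sig cells.

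Other members of the list differed in how far they had moved. Dntt, which adds untemplated bases at receptor joins, was intermediate, at 865 CPM in DP, 361 in Pre DP-sig and 97.02 in DP-sig. Within DP1 its log2 ratio to DP was -0.94 in place of -1.26, under 2-fold. Bcl2l1, which encodes the survival factor Bcl-xL of double-positive cells, was at 266 CPM in DP, 49.99 in Pre DP-sig and 58.2 in DP-sig. It was 5.31-fold (4.12 to 6.97) below DP, while the Pre DP-sig and DP-sig intervals overlapped. Arpp21 (1737, 645 and 657 CPM) and Plxnd1 (79.6, 25.8 and 20.2 CPM), a semaphorin receptor, had the same shape, with a Pre DP-sig level near that of DP-sig. Tcf12 and Themis were instead closer to DP. Tcf12, an E protein, was at 3604, 2629 and 1353 CPM, and Themis, a regulator of receptor signalling in selection, at 1706, 1444 and 739.7 CPM. Factors of the general T cell programme differed less, with ratios to DP of 1.22 for Satb1, 1.02 for Tcf7, 1.36 for Lef1 and 1.32 for Bcl11b. The list therefore held genes at the DP-sig level, genes part of the way and genes near the DP level.

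**Figure D2:**
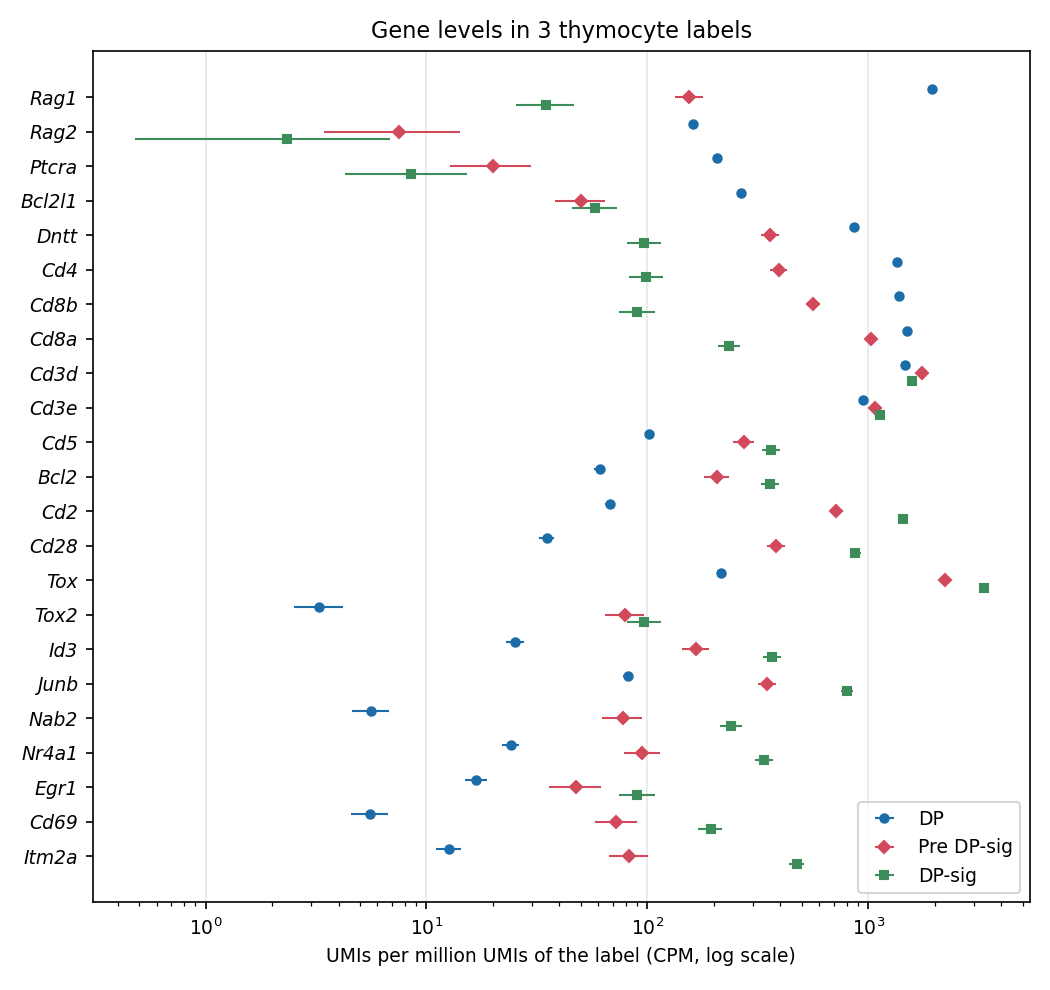
Levels of 23 genes in DP (circles), Pre DP-sig (diamonds) and DP-sig (squares) in CPM on a log axis, with 95% counting intervals as bars. Pre DP-sig lies between the other labels for most genes, with Rag1 at 154 CPM and Tox at 2229 CPM.

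Coreceptor RNA was reduced but present. Cd4, the coreceptor for class II molecules, was at 1350.1 CPM in DP, 393 in Pre DP-sig and 98.6 in DP-sig, which is 3.43-fold (3.13 to 3.77) below DP and 3.99-fold (3.27 to 4.89) above DP-sig. Cd8b was at 1372 CPM in DP, 562 in Pre DP-sig and 90.03 in DP-sig, 2.44-fold (2.26 to 2.64) below DP and 6.24-fold (5.11 to 7.66) above DP-sig. Cd8a, which encodes the other chain of the class I coreceptor, was at 1497 CPM in DP, 1025 in Pre DP-sig and 234 in DP-sig, only 1.46-fold (1.38 to 1.55) below DP. Each of the 3 coreceptor genes was therefore between DP and DP-sig, Cd8a closest to DP. Within DP1 the log2 ratio of Cd8b to DP was -0.9 in place of -1.29. Ptcra, the surrogate alpha chain of the pre-T cell receptor, was at 207 CPM in DP, 19.995 in Pre DP-sig and 8.54 in DP-sig, 10.4-fold (6.96 to 16.2) below DP.

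Among the other 10 genes for the receptor complex and its partners, accessory receptors were higher than in DP and the CD3 chains were close to it. Cd2, an adhesion receptor, was at 67.8 CPM in DP, 716 in Pre DP-sig and 1432 in DP-sig, 10.6-fold (9.67 to 11.5) above DP. Cd28, the main costimulatory receptor, was at 34.999 CPM in DP, 382 in Pre DP-sig and 875 in DP-sig, 10.9-fold (9.68 to 12.3) above DP. Cd5, an inhibitor of receptor signals whose level follows signal strength, was at 102 CPM in DP, 273 in Pre DP-sig and 363 in DP-sig, 2.67-fold (2.37 to 3.01) above DP. Ptpn6, a phosphatase that dampens receptor signals, was at 37.4, 177 and 346 CPM in the same order. These 4 genes made up the 4 of 14 at least 2-fold higher than in DP, as were 3.23% of all genes. Cd2 and Cd28 were at the same time at least 2-fold lower than in DP-sig, as were 1.72% of all genes. For Cd2 the latter rests on a log2 ratio of -1., which was -0.82 within Early SP. Cd3d, Cd3e, Cd3g and Cd247, the signalling chains, had ratios to DP between 0.869 and 1.19.

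The kinases and adaptors that pass the receptor signal on were mostly level across the 3 labels. Of 16 tested, 2 were at least 2-fold higher than in DP, Fyn among them, as were 3.23% of all genes. None was as far below DP, against 2.99% of all genes. Fyn, a kinase of the Src family, was at 168, 387 and 484 CPM in DP, Pre DP-sig and DP-sig, and its Pre DP-sig interval lay below that of DP-sig. Lck, the kinase bound to the coreceptors, was at 777, 662 and 495 CPM, Zap70 at 121, 122 and 132 CPM and the adaptor Lat at 567, 433 and 382 CPM. Grap2, an adaptor, was 2.18-fold (1.89 to 2.52) above DP-sig, and Nfatc1, a factor activated by calcium, was 2.16-fold (1.37 to 3.5) below it. Within the shared clusters the log2 ratio of Fyn to DP was 0.81 in place of 1.21 and that of Nfatc1 to DP-sig -0.92 in place of -1.11, both under 2-fold. The median ratio of the 16 genes was 1.16 against DP and 0.921 against DP-sig.

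Of 23 genes induced within a short time of a receptor signal 13 were tested. Of these, 11 had a ratio to DP above 1, Jun and Dusp2 being the exceptions, and 13 a ratio to DP-sig below 1. In all, 7 were at least 2-fold higher in Pre DP-sig than in DP and none lower, and 6 were at least 2-fold lower than in DP-sig and none higher. Over all genes 3.23% were as far above DP and 1.72% as far below DP-sig. The median ratio of the 13 genes was 2.15 against DP and 0.522 against DP-sig. Cd69 was at 5.55 CPM in DP, 72.5 in Pre DP-sig and 193 in DP-sig, 13.1-fold (9.71 to 17.5) above DP and 2.67-fold (2.08 to 3.44) below DP-sig. Nab2, a corepressor that binds EGR factors, was at 5.6 CPM in DP, 77.5 in Pre DP-sig and 239 in DP-sig, 13.8-fold (10.4 to 18.4) above DP. Nr4a1, a nuclear receptor whose level reports receptor signals, was at 24.1 CPM in DP, 94.98 in Pre DP-sig and 338 in DP-sig, 3.95-fold (3.19 to 4.86) above DP and 3.55-fold (2.89 to 4.41) below DP-sig. These 3 genes had the same order, DP lowest and DP-sig highest, with no overlap of intervals. Within Early SP the log2 ratio of Cd69 to DP-sig was -0.93 in place of -1.41.

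The AP-1 member Junb and the EGR member Egr1 were also above DP. Junb was at 81.9 CPM in DP, 349 in Pre DP-sig and 799 in DP-sig, 4.26-fold (3.82 to 4.75) above DP. Egr1, a zinc-finger factor, was at 16.8 CPM in DP, 47.5 in Pre DP-sig and 90.03 in DP-sig, 2.83-fold (2.1 to 3.77) above DP. In cells with at most 5% mitochondrial UMIs its log2 ratio to DP was 0.87 in place of 1.5, under 2-fold. Rel, an NF-kB subunit, was at 17.02, 36.7 and 62.9 CPM, and in the same cells its log2 ratio to DP was 0.64 in place of 1.11. Nr4a2 and Fos were at 18.8, 37.5 and 65.2 CPM and 32.6, 55.8 and 140.5 CPM. Nr4a3 was at 6.19, 26.7 and 79.2 CPM, but its log2 ratio to DP was 2.11 over all cells and -0.27 within the initial cluster DP1. With cells thinned it was 0.63. Its log2 ratio to DP-sig was -0.57 within Early SP in place of -1.57. The log2 ratio of Nr4a2 to DP was 1.00 and, within DP1, 0.27, and that of Cd69, 3.71, was 4.34 as the mean of the cells' CPM. Jun (118, 87.5 and 109 CPM) and Dusp2 (157, 147 and 199 CPM), a phosphatase for MAP kinases, were not raised. Egr2 and Egr3 were below the level filter, with 3 and 1 UMIs in Pre DP-sig.

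The promoters of Nr4a1 and of Itm2a, a selection-induced membrane protein described with the later genes, are shown because both genes were over 3-fold above DP and both hold the letters bound by EGR factors. The 250 bases before the start site were taken from RefSeq (build GRCr8) and are written 5′ to 3′ on the gene's strand. Capitals mark a match to GCGNGGGCG, which in both genes lies on the opposite strand.
Nr4a1, chr7:134259888-134260137, plus strand: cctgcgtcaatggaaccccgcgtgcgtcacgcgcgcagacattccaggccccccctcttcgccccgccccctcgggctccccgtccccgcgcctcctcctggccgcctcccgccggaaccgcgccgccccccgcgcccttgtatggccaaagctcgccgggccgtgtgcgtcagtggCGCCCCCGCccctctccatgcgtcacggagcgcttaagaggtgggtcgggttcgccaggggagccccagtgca
Itm2a, chrX:76565145-76565394, minus strand: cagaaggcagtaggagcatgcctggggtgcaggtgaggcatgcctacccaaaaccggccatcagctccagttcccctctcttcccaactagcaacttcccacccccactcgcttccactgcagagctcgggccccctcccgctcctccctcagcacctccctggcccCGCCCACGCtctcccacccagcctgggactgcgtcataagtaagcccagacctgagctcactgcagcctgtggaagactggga
The match begins at position -73 of Nr4a1 and -83 of Itm2a, counted from the start site. On both strands, the EGR letters were found in 4.29% of all 33469 promoter windows of this length, and in 3 of the 16 immediate response genes with a window (Dusp2, Dusp5 and Nr4a1). They were in 2 of 16 later selection genes with a window (Itm2a and Runx3) and in 0 of 15 genes of the double-positive programme. A CArG box, the site of serum response factor, was in 1.5% of all windows and in those of Egr1, Egr2 and Dusp5. A match describes letters only and was not tied to a binding measurement.

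Of 21 later genes of positive selection 14 were tested, with 8 at least 2-fold higher than in DP, 1 at least 2-fold lower and 4 at least 2-fold lower than in DP-sig. Over all genes these shares were 3.23%, 2.99% and 1.72%. A ratio to DP above 1 was found for 11 of the 14 genes and below 1 for 3. Their median ratio was 2.47 against DP and 0.709 against DP-sig. Tox was at 215 CPM in DP, 2229 in Pre DP-sig and 3352 in DP-sig, 10.4-fold (9.88 to 10.9) above DP and 1.5-fold (1.43 to 1.58) below DP-sig. Tox2, its close relative, was at 3.28 CPM in DP, 79.1 in Pre DP-sig and 97.02 in DP-sig, 24.1-fold (17.4 to 33.8) above DP, and its Pre DP-sig and DP-sig intervals overlapped. With cells thinned, the log2 ratio of Tox2 to DP was 5.99 in place of 4.59. Both TOX family genes were therefore nearer to DP-sig than to DP.

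Itm2a stood far from both labels, at 12.6 CPM in DP, 82.5 in Pre DP-sig and 474 in DP-sig, 6.53-fold (5.11 to 8.28) above DP but still 5.75-fold (4.64 to 7.18) below DP-sig. Id3, an inhibitor of E proteins, was at 25.2 CPM in DP, 166 in Pre DP-sig and 366 in DP-sig, 6.59-fold (5.56 to 7.79) above DP. Bcl2, a survival factor of selected cells, was at 60.8 CPM in DP, 206 in Pre DP-sig and 359 in DP-sig, 3.38-fold (2.94 to 3.89) above DP. Gata3, the factor of the CD4 lineage, was 1.82-fold (1.6 to 2.06) above DP and 2.03-fold (1.76 to 2.35) below DP-sig, at 126, 229 and 465 CPM. The log2 ratio of Gata3 to DP-sig was -0.92 in cells with at most 5% mitochondrial UMIs in place of -1.02, and that of Id3 was -0.64 within Early SP in place of -1.14. Runx3, a factor of the CD8 lineage, was at 24.1, 62.5 and 66.7 CPM. Within the initial cluster DP1 its log2 ratio to DP was 0.14 in place of 1.37. Cd53, a tetraspanin, was at 4.6, 10.8 and 64.4 CPM, and its log2 ratio to DP was 0.11 in DP1 in place of 1.24. Socs1, an inhibitor of cytokine signals, was the 1 gene at least 2-fold lower than in DP, at 52.3, 16.7 and 17.1 CPM. With cells thinned its log2 ratio to DP was -0.91 in place of -1.65, and within DP1 that of Id3 was 1.97 in place of 2.72. Genes of egress were barely detected, with 5 UMIs of S1pr1 and 4 of Ccr7 in Pre DP-sig, and Zbtb7b, the CD4 lineage factor ThPOK, had 1 UMI.

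Receptors that place cells in the thymus showed Ccr9 at its highest level in Pre DP-sig. Ccr9, which binds the cortical and medullary chemokine CCL25, was at 499 CPM in DP, 741 in Pre DP-sig and 577 in DP-sig. That is 1.48-fold (1.38 to 1.59) above DP and 1.28-fold (1.16 to 1.42) above DP-sig. Itga4, an integrin chain, was at 205, 512 and 494 CPM with overlapping Pre DP-sig and DP-sig intervals. Cxcr4, the receptor that holds cells in the cortex, was at 129, 137 and 98.6 CPM, and Ccr4, which guides selected cells to the medulla, was at 1.74, 14.2 and 63.6 CPM. The log2 ratio of Ccr4 to DP, 3.02, was 2.34 in cells with at most 5% mitochondrial UMIs and 4.13 within DP1. Of 7 tested genes, Itga4 and Ccr4 were at least 2-fold higher than in DP and Plxnd1 lower, against 3.23% and 2.99% of all genes.

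Of 14 genes of negative and agonist selection 7 were tested, 5 of them with a ratio to DP above 1 and 5 with a ratio to DP-sig below 1. Over all genes 3283 of 6223 had a ratio to DP above 1 and 3161 a ratio to DP-sig below 1. The median ratio of the 7 genes was 1.19 against DP and 0.488 against DP-sig. Past 2-fold were Ikzf2 and Nr4a1 above DP, Traf1 above DP-sig, and Ikzf2, Nr4a1, Nfkb1 and Tnfaip3 below DP-sig. Over all genes these shares were 3.23%, 3.0% and 1.72%. The log2 ratio to DP-sig was -0.79 within Early SP for Ikzf2, in place of -1.04, and -0.91 with cells thinned for Nfkb1, in place of -1.19. Ikzf2, which encodes Helios, was at 154 CPM in DP, 529.9 in Pre DP-sig and 1087 in DP-sig. Pdcd1, the inhibitory receptor PD-1, and Foxp3, the regulatory T cell factor, had no UMI in the 325 cells. Among 12 tested regulators of survival and death, Fas, a death receptor, was at 454, 204 and 61.3 CPM, 2.23-fold (1.96 to 2.54) below DP. Within DP1 its log2 ratio to DP was -0.81 in place of -1.15. Pmaip1, a death-promoting BH3 protein, was at 83.7 CPM in DP, 42.5 in Pre DP-sig and 105 in DP-sig, and the level in Pre DP-sig was the lowest of the 3. In cells with at most 5% mitochondrial UMIs its log2 ratios to DP and DP-sig were -2.03 and -2.12, in place of -0.98 and -1.3. Mcl1, Bid, Bax and Casp8 had ratios to DP between 0.953 and 1.19. The anti-apoptotic pair thus differed in direction, Bcl2 above and Bcl2l1 below DP.

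Genes of glycolysis were slightly higher than in DP. All 12 tested had a ratio to DP above 1, with a median of 1.44 against 1.02 over all genes, but only Pfkp, at 24.95, 59.2 and 86.9 CPM, passed 2-fold. Ldha, the lactate dehydrogenase subunit, was at 113, 207 and 355 CPM. Against DP-sig 11 of the 12 were below 1. Of 14 heat shock and other genes that handling of tissue can raise, 11 had a ratio to DP above 1 and 13 a ratio to DP-sig below 1. Their median ratios were 1.39 and 0.667, against 1.02 and 0.994 over all genes. Past 2-fold, 1 (Junb) was above DP, as were 3.23% of all genes. The 2 genes Fos and Junb were as far below DP-sig, as were 1.72% of all genes. The part of handling in the levels of the immediate response genes shared with this list was not tested. Most proliferation genes were low, with 18 of 24 under the level filter, and Mki67 and Top2a had 5 and 2 UMIs in Pre DP-sig. Of the 6 tested, 5 had a ratio to DP above 1, with a median of 1.59, and 4 a ratio to DP-sig above 1, with a median of 1.12. Summed, the 24 genes were at 1303 CPM in DP, 1662 in Pre DP-sig and 1668 in DP-sig. Mcm3, a replication licensing factor, was the 1 gene of these 6 at least 2-fold above DP, as were 3.23% of all genes. Mcm3 was at 20.6, 43.3 and 31.8 CPM. Its log2 ratio to DP was 0.97 in cells with at most 5% mitochondrial UMIs in place of 1.07. Of 14 interferon response genes 12 were under the filter, and of the 2 tested Socs1 was at least 2-fold below DP.

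Ranked by ratio over all tested genes, the genes highest above DP were Tox2, Vim, Cd226, Nab2, Cd69, Cd28, Cd2, Tox, St8sia6 and Raph1, in that order, from 24.1 to 8.4 fold. Vim, which encodes vimentin of the cytoskeleton, was at 6.19 CPM in DP, 95.8 in Pre DP-sig and 145 in DP-sig. Cd226, an adhesion and costimulatory receptor, was at 5.18, 76.6 and 89.3 CPM, and St8sia6, a sialyltransferase, at 9.25, 89.1 and 86.9 CPM. For Cd226 and St8sia6 the intervals of Pre DP-sig and DP-sig overlapped, whereas Raph1, an actin regulator, at 10.3, 86.6 and 266 CPM, was 3.07-fold (2.46 to 3.86) below DP-sig. The genes furthest below DP were Rag2, Rag1, Syt6, Ptcra, Tecta, Parm1, Sox6, Cbfa2t3, RT1-T18 and Usp20, from 21.6 to 6.39 fold. Syt6, a synaptotagmin, was at 544 CPM in DP, 51.7 in Pre DP-sig and 14.7 in DP-sig, and Cbfa2t3, a corepressor, at 117, 15.8 and 7.76 CPM. RT1-T18 is a class I gene of the rat major histocompatibility complex with close copies, so its count is uncertain. Within DP1 the log2 ratios to DP of Parm1, Sox6 and Vim were -2.03, -1.88 and 3.3, in place of -3.03, -2.93 and 3.95.

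Against DP-sig, the genes with the highest ratio were RT1-N2, Spon1, Cd8b, Pde6c, Cdc14b, Ccdc172, Gria3, Slc7a11, Lrguk and Gucy1b2, from 6.84 to 4.58 fold. Spon1, a secreted matrix protein, kept most of its DP level, at 188 CPM in DP, 142 in Pre DP-sig and 21.7 in DP-sig. Slc7a11, the cystine transporter, was at 1949 CPM in DP, 397 in Pre DP-sig and 86.2 in DP-sig, and Gria3, a glutamate receptor subunit, at 687, 202 and 43.5 CPM. All 10 of these genes were lower in Pre DP-sig than in DP. RT1-N2 is another class I gene with close copies and is uncertain. Within Early SP the log2 ratios of Slc7a11 and Lrguk to DP-sig were 1.38 and 1.38, in place of 2.2 and 2.2, and that of Pde6c was 1.12 in place of 2.42 with cells thinned.

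The genes furthest below DP-sig were Hivep3, Tigit, Tril, Gpc5, Cd53, Btla, Srgn, Itm2a, Chn2 and Arid5b, from 18.4 to 4.72 fold. Hivep3, a zinc-finger factor, was at 7.3 CPM in DP, 29.2 in Pre DP-sig and 536 in DP-sig, the widest gap to DP-sig among them. Tigit and Btla, inhibitory receptors, were at 1.22, 8.33 and 69.9 CPM and 1.96, 12.5 and 72.2 CPM. Srgn, the proteoglycan serglycin, was at 14.01, 96.6 and 556 CPM, and Arid5b, a DNA-binding factor, at 29.1, 93.3 and 441 CPM. These genes were low in both DP and Pre DP-sig compared with DP-sig, and all 10 ratios to DP were nonetheless above 1. The ratio of Chn2 to DP, at log2 0.96, turned to -0.19 in cells with at most 5% mitochondrial UMIs. Within DP1 the log2 ratios of Tigit and Arid5b to DP were 0.96 and 0.99, in place of 2.78 and 1.68. Against DP-sig, the log2 ratio of Tigit, -3.07, was -4.66 with cells thinned, and that of Chn2, -2.39, was -3.45 in cells with at most 5% mitochondrial UMIs.

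Few genes had their highest or lowest level in Pre DP-sig. Of 6223, 32 were at least 1.5-fold above both DP and DP-sig (0.514%), 23 of them with both intervals excluding 1 (0.370%), and 31 were as far below both (0.498%), 16 of them with both intervals excluding 1 (0.257%). After the filters on named genes and share of cells, 22 and 8 remained, and 10 and 7 of these are named. Those highest in Pre DP-sig were Gbp7, Notum, Fhit, Gimap9, Gyg1, Slc39a10, Prps2, Arl2bp, Cog7 and Bmpr2. Gbp7, an interferon-inducible GTPase, was at 28.8 CPM in DP, 59.2 in Pre DP-sig and 19.4 in DP-sig. Notum, an enzyme that inactivates Wnt proteins, was at 27.1, 60.8 and 30.3 CPM, Fhit at 31.7, 63.3 and 21.7 CPM and Gimap9, a GTPase of lymphocytes, at 23.5, 70.8 and 41.1 CPM. For Fhit the log2 ratio to DP was 1.00 over all cells and 0.27 in cells with at most 5% mitochondrial UMIs. Gyg1, glycogenin, was at 196 CPM in DP, 331 in Pre DP-sig and 183 in DP-sig, with 397 UMIs in Pre DP-sig the best counted of the group. Those lowest in Pre DP-sig were Ahi1, Pmaip1, Zhx1, Pip5k1c, Rad54l2, Shld2 and Zfp51l1. Ahi1, a ciliary adaptor protein, was at 364 CPM in DP, 171 in Pre DP-sig and 394 in DP-sig, 2.13-fold (1.86 to 2.46) below DP and 2.31-fold (1.96 to 2.73) below DP-sig. Under every alternative, 2 of the 10 highest (Gimap9 and Notum) and 4 of the 7 lowest (Ahi1, Pmaip1, Zhx1 and Shld2) stayed at least 1.5-fold from both labels. The others fell short against at least 1 label under at least 1 alternative. Their weakest log2 ratios to DP were 0.51 for Gbp7 and 0.43 for Arl2bp within DP1, 0.34 for Slc39a10 with cells thinned and 0.48 for Bmpr2 in cells without a UMI of 8 cycle genes. For Gyg1 it was 0.53 against DP in cells with at most 5% mitochondrial UMIs and 0.5 against DP-sig within Early SP. Against DP-sig, Prps2 was at 0.45 in the former cells, Cog7 at 0.5 and Pip5k1c at -0.28 with cells thinned, and Rad54l2 at -0.54 and Zfp51l1 at -0.53 within Early SP.

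Cell by cell, Pre DP-sig held cells with high and low counts of the same gene. A UMI of Tox was found in 89.8% of Pre DP-sig cells, against 23.4% of DP and 98.98% of DP-sig cells. Cd8a was found in 88.9%, 95.98% and 38.3%, and Rag1 in 20.3%, 95.9% and 5.76%. Most Pre DP-sig cells thus held Tox, as DP-sig cells did, and Cd8a, as DP cells did, while 20.3% held Rag1. Each cell was then thinned to 1000 UMIs, which left out 38 DP cells and no cell of the other labels. Tox was then found in 68.9% of Pre DP-sig, 11.5% of DP and 90.5% of DP-sig cells, and Rag1 in 9.85%, 79.5% and 2.03%. The order of the labels was unchanged for these genes. For Cd69 the deposited shares were 16.9%, 1.17% and 40.3%, and the thinned shares 5.23%, 0.465% and 15.9%.

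Tox ranged widely in Pre DP-sig, from 0 to 73 UMIs with a median of 5 and quartiles of 2 and 11, against a median of 0 in DP and 11 in DP-sig. At least 4 UMIs of Tox in 1000 were held by 18.8% of Pre DP-sig cells, 0.639% of DP and 34.9% of DP-sig cells. UMIs of Cd8a and Tox were found together in 258 of the 325 cells (79.4%), against 22.6% of DP and 37.3% of DP-sig cells. Independent detection of the genes would give 79.9% of Pre DP-sig cells. At 1000 UMIs a cell the pair, chosen after its values were seen, was found in 38.8% of Pre DP-sig, 8.11% of DP and 16.6% of DP-sig cells. Rag1 and Tox were together in 51 cells (15.7%), where independent detection would give 18.2%. Rag1 and Cd69 were together in 9 cells, 57 had Rag1 without Cd69 and 46 Cd69 without Rag1, and at 1000 UMIs a cell only 1 cell held both.

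**Figure D3:**
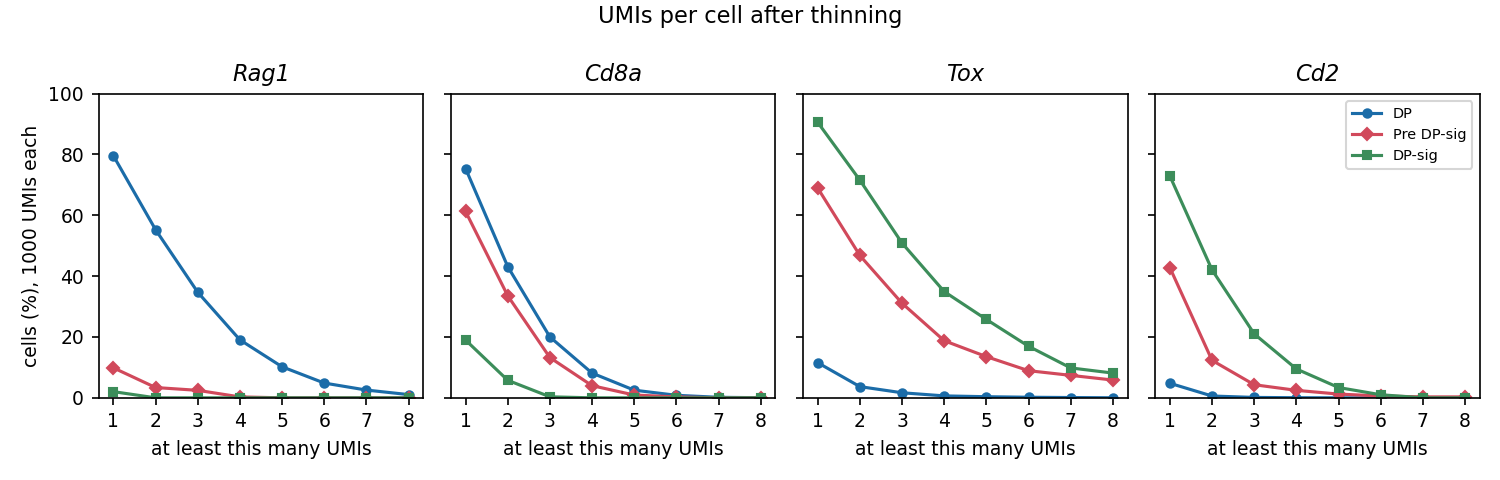
Share of cells (vertical axis, %) with at least a given number of UMIs (horizontal axis) of Rag1, Cd8a, Tox and Cd2 after each cell was thinned to 1000 UMIs. The Pre DP-sig curve lies near DP-sig for Rag1, near DP for Cd8a and between the labels for Tox and Cd2, as with 61.2% of cells with a UMI of Cd8a.

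The authors' initial clusters divided Pre DP-sig between double-positive and single-positive clusters. Of the 325 cells, 146 (44.9%, 39.4 to 50.5%) were in the cluster Early SP, 145 (44.6%) in DP1, 33 (10.2%) in DP2 and 1 in Mature SP. Of DP-sig cells 96.3% were in Early SP, and of DP cells 56.1% in DP1 and 42.0% in DP2. Pre DP-sig cells of DP1 had Rag1 at 191 (154 to 233) CPM and those of Early SP at 67.2 (48.02 to 91.5). Cd4 was at 488 (429 to 553) and 271 (230.4 to 316) CPM. Tox, Cd69, Itm2a and Id3 were ordered the other way. Tox was at 1527 (1421 to 1639) and 2657 (2527 to 2791) CPM, Cd69 at 41.7 (25.8 to 63.7) and 101 (76.9 to 129.8), and Itm2a at 45.7 (28.9 to 68.5) and 121 (94.7 to 152). Id3 was at 101 (75.4 to 133) and 239 (201 to 281) CPM. Within the label, then, the cells of DP1 were nearer to DP and those of Early SP nearer to DP-sig in Rag1, Cd4, Tox, Cd69, Itm2a and Id3. The clusters were made from the same counts, so this is a description. Nab2 (79.4 and 73.9 CPM) and Junb (355 and 361) had overlapping intervals in the 2 clusters, and the intervals of the ratio between clusters held 1 for Egr1 and Bcl2 too. Cd5 was lower in Early SP, at 299.8 CPM in DP1 and 234 in Early SP, a ratio of 0.779 (0.614 to 0.988). The 78 DP cells placed in Early SP stood apart from other DP cells, with a median of 6458.5 UMIs a cell, Tox at 1784 CPM, Cd69 at 97.4 and Itm2a at 195, and with Rag1 still at 935 CPM. The 33 Pre DP-sig cells of DP2 had Rag1 at 494 (365 to 653), Bcl2 at 614 (469.99 to 789) and Tox at 3223 (2879.7 to 3596) CPM, each above the levels of the other Pre DP-sig clusters.

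Differences from the neighbouring labels were also found inside a shared cluster. Among cells of DP1, Rag1 in Pre DP-sig was 0.105 (0.0853 to 0.129) times its level in DP, Tox 9.002 (8.27 to 9.79) times and Cd69 11.9 (6.69 to 20.6) times. Of the 201 genes at least 2-fold above DP over all cells, 127 were so within DP1, and of the 186 below it 123 were so. In all, 152 genes were called above DP and 190 below it within DP1. Among cells of Early SP, Cd8a in Pre DP-sig was 4.1 (3.55 to 4.74) times its level in DP-sig, Itm2a 0.253 (0.196 to 0.324) times and Rag1 1.92 (1.22 to 3.02) times, against 4.41 times over all cells. Of the 185 genes above DP-sig by 2-fold with an interval excluding 1, 103 were so within Early SP, and of the 107 below it 70 were so. In all, 140 genes were called above DP-sig and 116 below it within Early SP. The cells of each cluster are part of the sums over all cells. Recurrence of the calls is therefore partly built in and is no separate support for them.

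**Figure D4:**
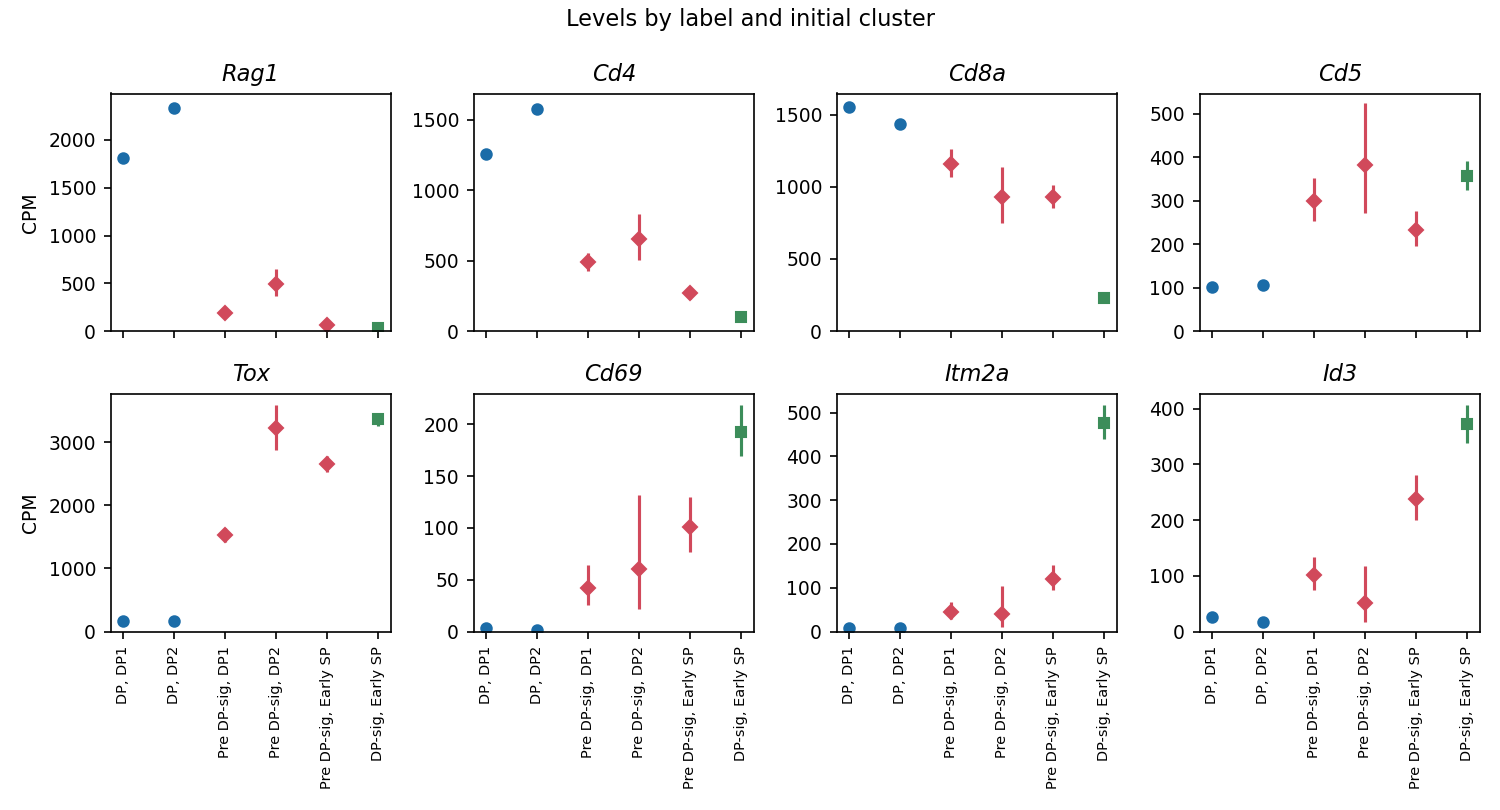
Levels of 8 genes in CPM (vertical axes, from 0) by label and initial cluster, with 95% counting intervals. Pre DP-sig cells of each plotted cluster are below the plotted DP-sig cells in Cd69, Itm2a and Id3, and Rag1 is 191 CPM in DP1 against 1809 in DP cells of that cluster.

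In the Stereo-seq section the authors gave each 10 µm bin up to 3 labels by RCTD, a method that models a bin as a mixture of reference cell types. Of 592087 bins with a label, 53325 had Pre DP-sig first, a share of bins and not of cells. DP was first in 138034 bins and DP-sig in 9353. The library's 325 Pre DP-sig, 5202 DP and 295 DP-sig cells had other proportions, and the reason was not tested. Pre DP-sig was first in 10.02% of cortical bins, 8.83% of capsular bins and 2.38% of medullary bins. The medullary share was 1.82% in the region named mECA and 3.54% in the region named mEFA. The ratio of medulla to cortex was 0.238 (0.226 to 0.251) for Pre DP-sig, 0.058 (0.0543 to 0.0619) for DP and 0.844 (0.785 to 0.906) for DP-sig. Over bins given 1 type these ratios were 0.442 (0.398 to 0.491), 0.158 (0.141 to 0.176) and 1.26 (1.08 to 1.48), and over bins with a confident first label 0.526 (0.474 to 0.583), 0.0946 (0.0866 to 0.103) and 1.74 (1.45 to 2.08). The ratio for Pre DP-sig was below 1 and between those of the other labels under each of these 3 choices of bins, and its size depended on the choice. Medullary bins were deeper, with a median of 507 UMIs against 306 in cortex, and neighbouring bins share RNA, so the intervals are too narrow.

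Within the cortex, the Pre DP-sig share was 6.76% up to 20 µm from the medulla, 9.36% from 20 to 50 µm, 10.7% from 100 to 150 µm and 10.6% beyond 600 µm. The DP share over the same steps was 8.28%, 16.4%, 26.7% and 29.7%, and the DP-sig share 2.44%, 2.36%, 1.62% and 1.73%. The ratio of bins within 50 µm to bins over 200 µm from the medulla was 0.833 (0.805 to 0.861) for Pre DP-sig, 0.479 (0.468 to 0.492) for DP and 1.58 (1.48 to 1.7) for DP-sig. Among bins whose first label was 1 of these 3, the direction was the opposite, with Pre DP-sig in 38.6% up to 20 µm, 33.3% from 20 to 50 µm, 27.3% from 100 to 150 µm and 25.1% beyond 600 µm. Depth moved with the ratio over all labelled bins, since bins within 20 µm had a median of 450 UMIs and those at 200 to 300 µm 299. The Pre DP-sig share of cortical bins itself was 14.4% in the shallowest of 10 depth classes of near-equal size and 3.98% in the deepest. Within these classes the ratio was 0.985 to 1.17 for Pre DP-sig, 0.339 to 0.8999 for DP and 1.38 to 2.87 for DP-sig, and in each of the 10 classes Pre DP-sig lay between the other labels. It was 1.06 (1.01 to 1.11) over bins given 1 type and 1.54 (1.44 to 1.64) over bins with a confident first label, so the direction for Pre DP-sig depends on the bins and on the denominator used, while its place between DP and DP-sig held in each depth class.

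**Figure D5:**
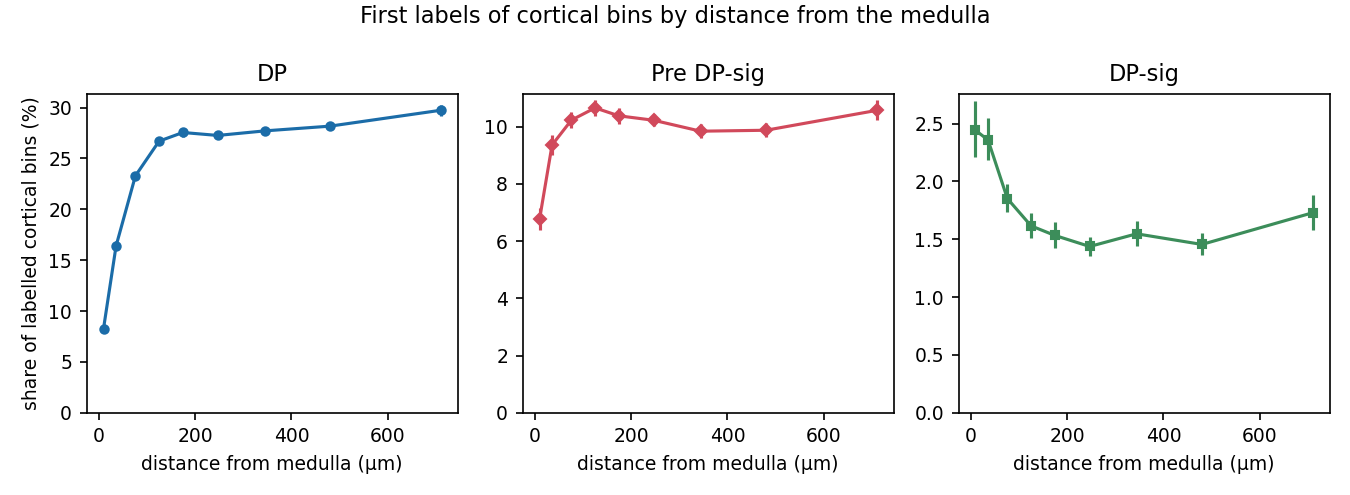
Share of labelled cortical bins (vertical axes, %, from 0) whose first label is DP, Pre DP-sig or DP-sig, by distance from the medulla in µm, with 95% counting intervals. The DP share is lowest and the DP-sig share highest beside the medulla, and the Pre DP-sig share is 6.76% within 20 µm and 10.2% at 50 to 100 µm.

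The first label was called confident by the authors in 20.1% of cortical Pre DP-sig bins, against 58.0% of DP and 13.4% of DP-sig bins. A second label was given to 32.4% of cortical Pre DP-sig bins, and in 52.5% of these it was cTEC, the epithelium of the cortex that presents self peptides. The share was 53.2% for DP and 40.4% for DP-sig bins. The intervals of Pre DP-sig (51.7 to 53.4%) and DP (52.7 to 53.7%) overlapped. Labels named for the epithelium of the medulla were also given second in these cortical bins. Among Pre DP-sig bins with a second label, it was mTEC-prol in 20.02% and mTEC2 in 9.34%. For DP bins these shares were 21.53% and 8.1%, and for DP-sig bins 22.06% and 14.49%. The reason was not tested.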

How the data were processed

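The deposited values of the thymocyte library are whole UMI counts for each gene in each barcode. Per the file headers Cell Ranger 8.0.0 produced them, and the submitters' processing notes also name Seurat 5.3.0 and the build mRatBN7.2, and the annotation is not given in the sources used here. The deposited percent of mitochondrial UMIs per cell is the authors' own. Counts of UMIs per bin and the fraction of each bin given to a label are deposited by the authors, who used RCTD with rat and published mouse references per the labels.

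UMIs were summed per label and scaled to CPM. Ratios have exact binomial intervals, shares exact Clopper-Pearson intervals and ratios of bin shares log-normal intervals, at 95%. A ratio against a label with fewer than 3 UMIs used 3. Of the 34034 genes, those with a mean of at least 20 CPM over the 3 labels were compared, at a fold of 2. The members and the gene lists were chosen with earlier results of these data known. The text names the marker genes, list genes past 2-fold with up to 4 others of each list, and the 10 genes most extreme in each direction among those with an interval excluding 1 that were detected in 10% or more of the cells of the higher label. Genes known only by an identifier, mitochondrial, ribosomal and haemoglobin genes were left out of these. Some list genes beyond the rule (S1pr1, Ccr7, Zbtb7b, Pdcd1, Foxp3, Egr2, Egr3, Mki67, Top2a) were named after their values were seen, for their low counts.

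Possible doublets were neither called nor taken out; the largest Pre DP-sig cell held 10992 UMIs. On label totals simulated with counting error alone, the ratio recovered 98.0% of genes changed 3-fold against DP and all changed 4-fold, over 6223 genes. It called 0.0830% of unchanged ones against DP and 0.382% against DP-sig. The simulation held no spread between cells, so these rates do not give the rate of false calls in the data. Work used Python 3.11.15, pandas 2.3.3, matplotlib 3.10.9, SciPy 1.17.1 and NumPy 2.4.6, with seed 7. Some genes that the rule or the lists hold are not reported here. The alternatives tried are in the closing section.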

Additional observations from a re-analysis of the deposited data

How the results depend on the processing

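Of 3585 single-gene ratios under 12 alternative settings, 3337 stayed within their interval. That total includes settings that removed few cells or changed only the scaling, under which all 326 ratios stayed. Within DP1, 87 of 162 ratios stayed, 73 moved and 2 reversed. Within Early SP 120 of 163 stayed, at 1000 UMIs a cell 251 of 326, and in cells with at most 5% mitochondrial UMIs 287 of 326. The last setting kept only 161 Pre DP-sig, 2349 DP and 199 DP-sig cells. Of ratios whose interval excluded 1, 5 changed sign, and another 69 changes of sign were of ratios whose interval held 1. Those 5 were log2 ratios to DP of -0.19 for Chn2 in cells with at most 5% mitochondrial UMIs, -0.056 for Chn2 and -0.27 for Nr4a3 within DP1, and, at 1000 UMIs a cell, 0.076 for Jun against DP and 0.053 for Bax against DP-sig. The cause was not tested. The comparisons within DP1 and within Early SP, and without shared barcodes, were chosen after seeing the data. Counts of genes past the fold depended on the thresholds. A mean of at least 5 CPM gave 451 higher and 453 lower than DP, 469 higher and 409 lower than DP-sig, and 50 CPM gave 112 higher and 102 lower than DP, 107 higher and 48 lower than DP-sig. The number of genes tested differs between these level cutoffs, so the counts cannot be compared as shares. A fold of 1.5 gave 553 higher and 513 lower than DP, 564 higher and 483 lower than DP-sig, and a fold of 3 gave 80 higher and 66 lower than DP, 50 higher and 29 lower than DP-sig. At 1000 UMIs a cell, where fewer UMIs widen each ratio, 328 were lower than DP, 446 higher and 376 lower than DP-sig. Shares of Pre DP-sig cells with a UMI fell with depth by construction, at 1000 and 2000 UMIs to 9.85% and 14.5% for Rag1, 31.1% and 47.95% for Cd4, 5.23% and 10.7% for Cd69, and 6.46% and 11.4% for Itm2a. Cells with Rag1 and Cd69 were 0.308%, and with Rag1 and Itm2a 0%, at 1000 UMIs.

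For the section, the share, the ratio of medulla to cortex and the ratio near to far from the medulla were 7.63%, 0.314 and 0.642 over segmented cell bins, 10.1%, 0.442 and 1.06 over bins given 1 type, 6.09%, 0.27 and 0.902 over deeper bins and 3.84%, 0.526 and 1.54 over confident bins. Sums of weights gave 8.52% and 0.267, bins left of the median x coordinate 9.34% and 0.218, and bins right of it 8.67% and 0.259, for the share and the ratio of medulla to cortex. The ratio near to far was thus above 1 over bins given 1 type and over confident bins; the cause was not tested. For DP-sig labels, in settings added after seeing the data, the ratio of medulla to cortex was 1.02 over segmented cell bins, 1.26 over bins given 1 type, 1.02 over deeper bins and 1.74 over confident bins. Labels from the initial cluster alone were not run, since the initial clusters hold no Pre DP-sig. No paired analysis was possible because every label comes from 1 library.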
